A study of Mus musculus with 2 samples.

Results

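The 62 genes described here are the WNT pathway genes of the mouse lung at embryonic day 15.5. They are the protein-coding genes of 6 name families (Wnt, Fzd, Sfrp, Dkk1 to Dkk4, Rspo and Lgr4 to Lgr6), to which 18 single genes such as Wls, Lrp6, Axin2, Ctnnb1 and Lef1 were added by name. They were chosen by name among the 43346 genes with an Ensembl identifier, of which 21474 are protein-coding. The naming rule used no measured value. Total RNA was sequenced from healthy lungs of the B6NCrl mouse strain in a single group of 2 libraries. Replicate 1 came from the pooled lungs of 78 embryos and replicate 2 from those of 62, males and females together, and no genotype or treatment was compared. The libraries were made from 10 ng of RNA over 200 nt long, with spike-ins. Since each pool had 1 library, a difference between embryos cannot be told apart from one of dissection, RNA extraction or library making.

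WNT proteins are secreted, lipid-carrying signals. Without a WNT signal, a complex built on AXIN and APC marks β-catenin for destruction. When a WNT binds a frizzled receptor together with LRP5 or LRP6, that complex is held back, and β-catenin enters the nucleus and acts with TCF and LEF proteins on target genes. Some WNTs act instead through β-catenin independent routes that shape cell polarity and movement. In the mouse, Wnt2 and Wnt2b of the lung mesenchyme are together needed for the lung to be specified from the foregut, and Wnt7b of the epithelium is needed for growth of the mesenchyme around it.

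The libraries held 40395850 and 36601054 expected counts, which are the authors' estimates of reads per gene. Levels are in TPM, a measure scaled to library size that corrects for transcript length, so genes can be compared within a library. They are given for replicate 1 and then replicate 2, or as the mean ± SD (n = 2). The markers of lung were high: all 7 of the epithelial list and all 6 of the mesenchymal list were detected. Their summed levels were 7749.7 and 6797 TPM for the epithelium and 1577 and 1499 TPM for the mesenchyme. Single genes made up most of these sums, Sftpc with 6881.12 and 5863.6 TPM and Col1a1 with 1062.24 and 998.3 TPM. After scaling, 5 of the 7 epithelial markers were higher in replicate 2 and 2 were lower. Markers of several other tissues and cell types differed between the pools. Those of thymus and T cells summed to 101 and 20.0 TPM, those of the mesothelium to 62.4 and 48.0 TPM, those of squamous epithelium such as the oesophagus to 44.4 and 22.0 TPM, and those of hepatocytes to 32.8 and 152 TPM. Markers of skeletal muscle summed to 42.6 and 62.5 TPM, those of nerve to 14.8 and 7.31 TPM and those of heart muscle to 859 and 779 TPM. The heart markers went both ways, with Myl2 at 25.76 and 119.37 TPM and Myh6 at 80.27 and 29.88 TPM.

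WNT proteins carry a fatty acid on a conserved serine, which PORCN attaches and which fits into a groove of the frizzled receptor. The stretch that codes for this serine is shown for the 9 ligand genes detected in the lung, ordered by level, because it is the part of each ligand on which release and receptor binding depend. Each run has 36 bases of 1 coding exon, read 5′ to 3′ along the coding strand from the transcripts of GENCODE M21, with the codon of the serine in capitals and positions on GRCm38.
Wnt2: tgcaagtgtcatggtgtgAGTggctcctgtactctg
Wnt7b: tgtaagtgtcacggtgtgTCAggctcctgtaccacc
Wnt11: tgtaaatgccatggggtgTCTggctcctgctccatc
Wnt5a: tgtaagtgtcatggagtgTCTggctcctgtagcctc
Wnt5b: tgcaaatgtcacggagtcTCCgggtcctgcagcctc
Wnt9a: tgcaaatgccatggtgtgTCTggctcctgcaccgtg
Wnt2b: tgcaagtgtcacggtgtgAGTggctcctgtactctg
Wnt4: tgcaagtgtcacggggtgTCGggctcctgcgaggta
Wnt7a: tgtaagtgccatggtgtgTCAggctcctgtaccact

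The Wnt2 stretch lies at chr6:18008786-18008821 on the minus strand and codes for serine 212, and that of Wnt7b lies at chr15:85537806-85537841 on the minus strand and codes for serine 213. The stretches were found by a fixed pattern of residues around the serine, which all 18 ligand genes outside chromosome 18 held. Wnt8a, the ligand gene on chromosome 18, was not searched. Among the 36 pairs of the 9 detected ligands, between 23 and 35 of the 36 bases were the same. Part of this agreement is set by the pattern itself. The closest pair was Wnt2 and Wnt2b, which share the codon AGT and are the only ligands searched that use it. Both belong to 1 subfamily, yet their levels in the lung lay far apart, as shown with the ligand values.

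A gene counted as detected when both libraries gave it at least 1 TPM. By this rule 45 of the 62 WNT pathway genes were detected (72.6%), beside 60.7% of all protein-coding genes. The detected genes covered every step of the pathway, and Ctnnb1 and Wls were the 2 genes at 100 TPM or more. Another 24 lay between 10 and 100 TPM and 19 were detected below 10 TPM, the lowest of them resting on 76 reads. The median level of all 62 was 6.65 ± 0.0389 TPM, beside 4.75 ± 0.332 TPM for all protein-coding genes. Across roles, the median was lowest for the ligands at 0.985 ± 0.0212 TPM and highest for the ligand maturation genes at 59.2 ± 2.40 TPM, a group of 2 genes. Between them stood the secreted antagonists at 2.13 ± 0.0424 TPM, the genes of receptor turnover at 6.53 ± 0.424 TPM, the receptors at 9.73 ± 0.0495 TPM and the effectors at 25.0 ± 0.255 TPM. In whole lung, fewer cells of a type and less RNA per cell cannot be told apart, and this holds for each level given here.

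**Figure D1:**
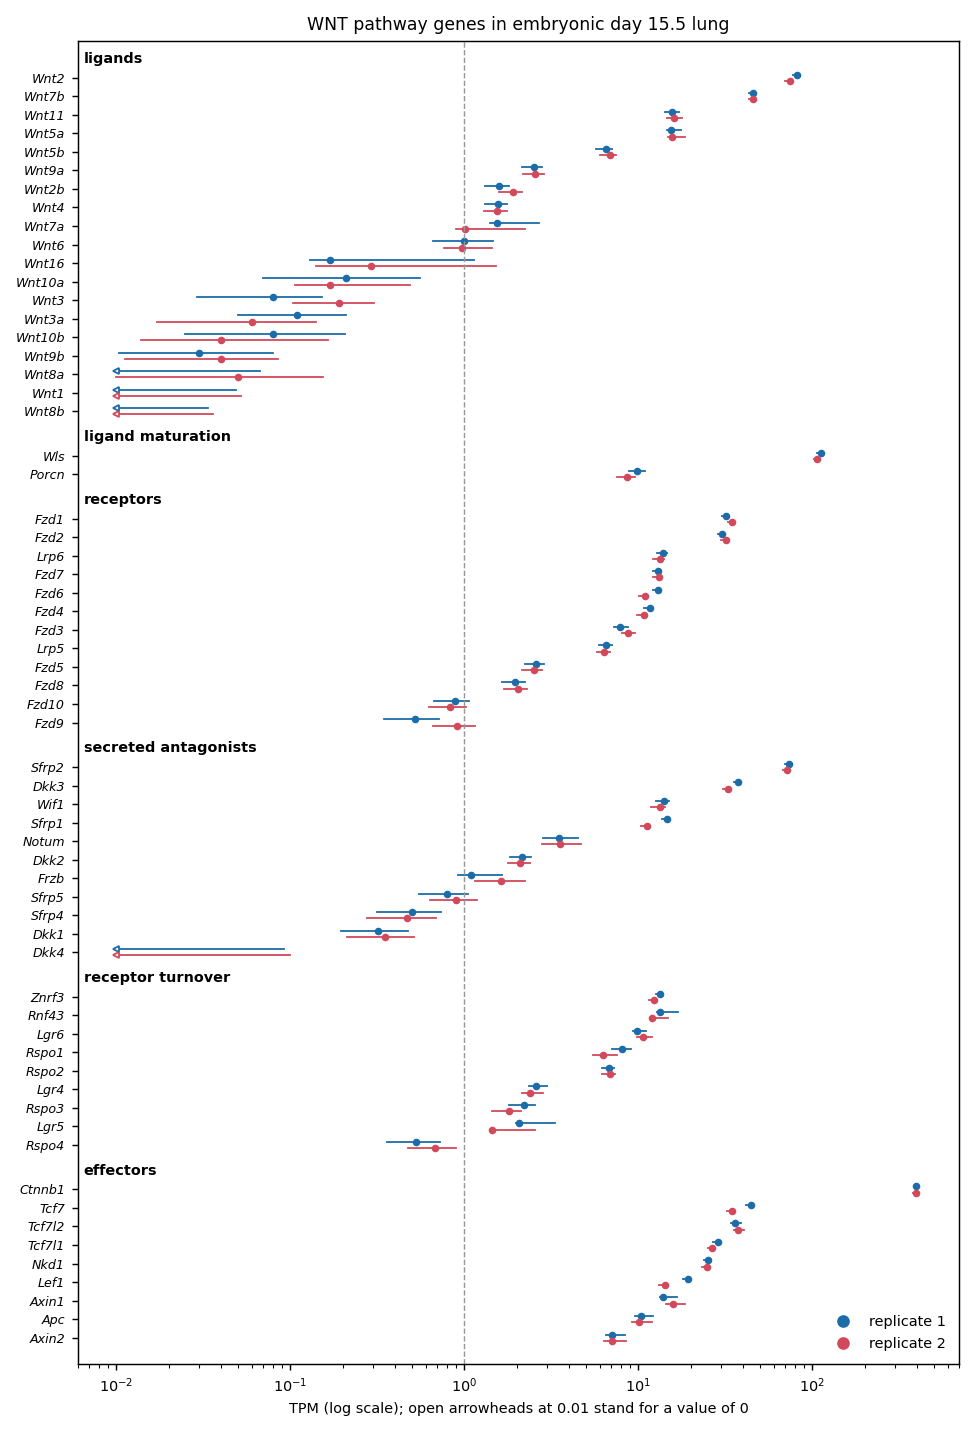
TPM on a log axis of the 62 WNT pathway genes in replicate 1 (blue) and replicate 2 (red), grouped by role and ordered by mean. Points are the deposited TPM, bars the deposited intervals, open arrowheads a value of 0 and the dashed line the detection minimum of 1 TPM. Ligands spread from 0 to 81.82 TPM, while all 9 effectors lie above 7 TPM.

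Among the 19 ligand genes, Wnt2 was the highest. Wnt2 (ENSMUSG00000010797.4; chr6:17988940-18030585, minus strand) stood at 81.82 and 74.37 TPM. Wnt7b (ENSMUSG00000022382.10; chr15:85535437-85582473, minus strand) followed at 45.57 and 45.86 TPM. Both libraries gave the same order, their deposited intervals overlapped in neither, and the ratio of Wnt2 to Wnt7b was 1.71 ± 0.123. This ratio turned to 0.961 when only protein-coding transcripts were summed, a setting that leaves out a Wnt2 transcript described with the transcripts. Wnt2 and Wnt7b together held 73.3% and 71.8% of the summed ligand TPM.

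Wnt11 (chr7:98835112-98855195, plus strand), a ligand known for β-catenin independent signalling in kidney branching and heart development, stood at 15.58 and 16.12 TPM. Wnt5a (chr14:28504750-28527448, plus strand), the classical ligand of the polarity route that limits distal lung outgrowth in the mouse, stood at 15.37 and 15.53 TPM. These levels were not separable: the ratio of Wnt5a to Wnt11 was 0.975 ± 0.0163 and the intervals overlapped in both libraries. Wnt7b was 2.88 ± 0.0566 times as high as Wnt11, with separate intervals in both. Over protein-coding transcripts only, these ratios were 1.85 for Wnt5a to Wnt11 and 5.67 for Wnt7b to Wnt11. The 4 leading ligands together held 90.9 ± 0.349% of the summed ligand TPM.

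In 3 ligand subfamilies with both genes detected, 1 gene was clearly the higher. Wnt2 was 45.5 ± 8.94 times as high as Wnt2b, which stood at 1.58 and 1.90 TPM, and 25.5 times as high over protein-coding transcripts only. Wnt7b was 37.4 ± 11.3 times as high as Wnt7a, which stood at 1.55 and 1.01 TPM on 126 and 76 reads. Wnt5a was 2.31 ± 0.0638 times as high as Wnt5b, which stood at 6.52 and 6.85 TPM. All 3 pairs had separate intervals in both libraries. Wnt9a at 2.50 and 2.56 TPM and Wnt4 at 1.57 and 1.55 TPM completed the detected ligands. Wnt2b, Wnt4 and Wnt7a, neighbours in the order of levels, were not separable from one another.

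The other 10 ligand genes were not detected. Wnt6 lay at the limit with 1.00 and 0.97 TPM, on 35 and 47 reads. Wnt16 (0.17 and 0.29 TPM), Wnt10a (0.21 and 0.17), Wnt3 (0.08 and 0.19) and Wnt3a (0.11 and 0.06) rested on between 4 and 14 reads a library. Wnt10b and Wnt9b had between 2 and 4 reads a library, and Wnt8a had 0 and 2. Wnt1 and Wnt8b had no read in either library, which allows up to 0.0498 and 0.0535 TPM for Wnt1 and up to 0.0346 and 0.0372 TPM for Wnt8b, counting 3 reads as the limit. These limits and the deposited intervals cover counting error or read assignment, not the spread between animals.

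Several undetected ligands lie side by side on their chromosomes. With a limit of 100 kb between genes there are 4 such neighbouring pairs of ligand genes. Wnt6 and Wnt10a lie 6193 bases apart on chromosome 1, Wnt10b and Wnt1 11706 bases apart on chromosome 15, and Wnt9b and Wnt3 24328 bases apart on chromosome 11. Wnt3a and Wnt9a lie 16175 bases apart on another stretch of chromosome 11. Wnt6 and Wnt10a share a strand, while the genes of each other pair lie on opposite strands. Wnt9a at 2.50 and 2.56 TPM was the single detected gene among the 8. None of the 4 ligands at 10 TPM or more belongs to such a pair.

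**Figure D2:**
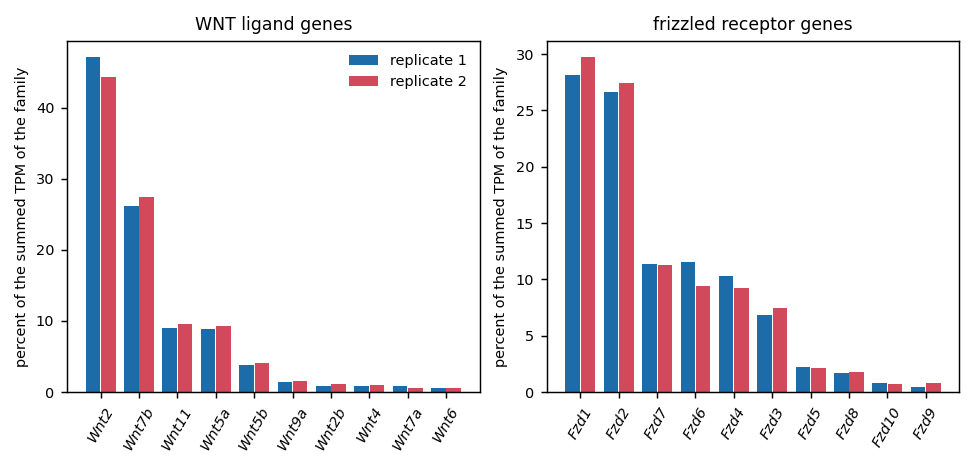
Percent of the summed TPM of the ligand genes (left, the 10 highest) and of the frizzled receptor genes (right, all 10) held by each gene in replicate 1 (blue bars) and replicate 2 (red bars). Wnt2 and Wnt7b together hold 72.5 ± 1.11% of the ligand sum, and Fzd1 and Fzd2 together hold 55.9 ± 1.74% of the frizzled sum.

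Both ligand maturation genes were detected. WLS escorts the lipid-carrying WNTs to the cell surface, and PORCN attaches the lipid. Wls (ENSMUSG00000028173.6; chr3:159839672-159938664, plus strand) stood at 112.01 and 106.46 TPM, and Porcn (chrX:8193848-8206525, minus strand) at 9.86 and 8.61 TPM. Wls was thus 11.9 ± 0.710 times as high as Porcn, with separate intervals in both libraries, and ranked 1448 among the protein-coding genes, in the top 6.74%.

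Of the 12 receptor genes 10 were detected, and Fzd1 and Fzd2 led. Fzd1 (ENSMUSG00000044674.5; chr5:4753839-4758035, minus strand) stood at 31.93 and 34.56 TPM. Fzd2 (ENSMUSG00000050288.6; chr11:102604396-102608058, plus strand) stood at 30.31 and 31.92 TPM. Fzd1 was the higher in each library, but their intervals overlapped in replicate 1 and their ratio was 1.07 ± 0.0207, so they were not called different.

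Fzd7 (13.02 and 13.20 TPM), Fzd6 (13.04 and 10.95 TPM) and Fzd4 (11.73 and 10.73 TPM), the last also the receptor for the non-WNT ligand norrin, formed a second tier whose neighbours were not separable in both libraries. Fzd3 at 7.81 and 8.67 TPM, best known for axon guidance and polarity, was separable from Fzd4 above it. Fzd5 (2.57 and 2.50 TPM) and Fzd8 (1.96 and 2.03 TPM) were the lowest detected frizzled genes. Fzd10 (0.88 and 0.83 TPM) and Fzd9 (0.52 and 0.91 TPM) were not detected.

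The co-receptor Lrp6 (ENSMUSG00000030201.11; chr6:134446476-134566965, minus strand) stood at 13.79 and 13.26 TPM and its relative Lrp5 at 6.49 and 6.39 TPM. Lrp6 was 2.10 ± 0.0351 times as high as Lrp5, with separate intervals in both libraries. Fzd2 was 2.30 ± 0.148 times as high as Lrp6, also with separate intervals. The summed level of all 12 receptors was 134 and 136 TPM, beside 174 and 168 TPM for the 19 ligands.

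The 11 secreted antagonists included some of the most abundant and some of the least abundant genes of the pathway. Sfrp2, a decoy that binds WNTs through a frizzled-like domain, led at 73.16 and 71.61 TPM (ENSMUSG00000027996.9; chr3:83766321-83774316, plus strand). Dkk3, a divergent member of the dickkopf family that does not block LRP6 as DKK1 does, stood at 37.40 and 32.80 TPM. Wif1, which binds WNTs directly, stood at 14.04 and 13.29 TPM, and Sfrp1 at 14.57 and 11.17 TPM.

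Sfrp2 was 2.07 ± 0.161 times as high as Dkk3, and Dkk3 was 2.57 ± 0.138 times as high as Wif1, each with separate intervals in both libraries. Notum, the enzyme that removes the lipid from WNTs, stood at 3.51 and 3.54 TPM. Dkk2 stood at 2.16 and 2.10 TPM and Frzb at 1.10 and 1.62 TPM. The other 4 were not detected: Sfrp5 (0.80 and 0.90 TPM), Sfrp4 (0.50 and 0.47 TPM), the LRP-blocking Dkk1 (0.32 and 0.35 TPM) and Dkk4, which had no read and a limit of 0.0941 and 0.101 TPM. The antagonist order was thus led by a frizzled-related decoy, while Dkk1, Dkk2 and Dkk4, the dickkopf genes known to bind LRP5 and LRP6, were at 2.16 TPM or lower.

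ZNRF3 and RNF43 are membrane ubiquitin ligases that remove frizzled receptors from the cell surface, and R-spondins, bound by LGR4, LGR5 or LGR6, hold them back. Znrf3 stood at 13.35 and 12.29 TPM and Rnf43 at 13.31 and 11.95 TPM, with a ratio of 1.02 ± 0.0180 and overlapping intervals. Lgr6 led the LGR genes at 9.78 and 10.60 TPM. Rnf43 was 1.24 ± 0.165 times as high as Lgr6, and their intervals overlapped in 1 library. Over protein-coding transcripts only, the ratio of Znrf3 to Rnf43 was 2.08 and that of Rnf43 to Lgr6 turned to 0.606.

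Lgr4 stood at 2.57 and 2.39 TPM and Lgr5, a stem cell marker in the adult intestine, at 2.05 and 1.45 TPM, and these were not separable, with a ratio of 1.45 ± 0.279. Among the ligands of these receptors, Rspo1 (8.02 and 6.23 TPM) and Rspo2 (6.83 and 6.92 TPM) were not separable, Rspo3 was lower at 2.19 and 1.81 TPM, and Rspo4 was not detected at 0.53 and 0.68 TPM. Loss of Rspo2 disturbs lung branching in the mouse. In this group 8 of 9 genes were detected.

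All 9 effectors were detected. Ctnnb1, the gene of β-catenin (ENSMUSG00000006932.12; chr9:120929216-120960507, plus strand), stood at 394.09 and 392.95 TPM and ranked 322 among the protein-coding genes. The destruction complex marks β-catenin at a short cluster of serines and a threonine. That stretch is shown because it is where the AXIN complex acts on β-catenin, whose gene had the highest level of the 62. It lies at chr9:120950602-120950643 on the plus strand of GRCm38, and the capitals are the codons of residues 33, 37, 41 and 45.
Ctnnb1: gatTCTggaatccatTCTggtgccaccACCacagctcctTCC

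The scaffold genes of that complex were far lower in RNA. Axin1 stood at 13.94 and 15.87 TPM, Apc at 10.32 and 10.12 TPM and Axin2, which is also a widely used target gene of the pathway, at 7.10 and 7.05 TPM. Axin1 was 2.11 ± 0.203 times as high as Axin2, with separate intervals in both libraries. Nkd1, an inhibitor that binds Dishevelled and is itself induced by WNT signals, stood at 25.15 and 24.79 TPM.

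All 4 TCF/LEF genes, of the family of DNA-binding partners of β-catenin, were detected. Tcf7 (ENSMUSG00000000782.11; chr11:52252371-52283014, minus strand) stood at 44.40 and 34.63 TPM. Tcf7l2 (ENSMUSG00000024985.14; chr19:55741820-55933654, plus strand) stood at 36.08 and 37.63 TPM. Their order differed between the libraries, with ratios of 1.23 and 0.920, so they were not called different. Over protein-coding transcripts only, Tcf7 was the higher in both libraries, with a mean ratio of 1.95. Ctnnb1 was 10.1 ± 1.75 times as high as Tcf7.

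Tcf7l1 (chr6:72626378-72789254, minus strand), which acts mainly as a repressor, stood at 28.59 and 26.43 TPM, and Lef1 (ENSMUSG00000027985.10; chr3:131110471-131224356, plus strand) at 19.26 and 14.23 TPM. Lef1 was 0.422 ± 0.0162 times as high as Tcf7 and Tcf7l1 0.747 ± 0.0637 times as high as Tcf7l2, with separate intervals in both libraries. The latter ratio turned to 1.34 when only protein-coding transcripts were summed, since much of the Tcf7l2 level lay in transcripts annotated with a retained intron.

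The deposited tables also divide each gene's TPM among its transcripts, in percent. Of the 26 detected genes with 2 or more protein-coding transcripts, 24 were led by the same transcript in both libraries. Among 32 detected members with 2 or more transcripts of any type, the median share held by protein-coding transcripts was 98.6% and 97.9%, and 7 (21.9%) were under 75% in both libraries. Of 9530 detected protein-coding genes with 2 or more transcripts, 24.2% were under 75% in both, and the median share was 92.3% and 92.8%. Transcripts with no entry in GENCODE M21, which gave the types, counted as not coding in both sets and lower these shares. Wnt2 was among the 7 only through such a transcript of unknown type, which held 45.1% and 42.3% of its TPM.

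Wnt2 was divided between a pair of transcripts. Wnt2-201, which codes for 360 residues, held 54.92% and 57.69% of its TPM, which is 44.94 and 42.91 TPM. The rest, 45.08% and 42.31%, lay in a transcript of the authors' annotation that has no entry in the newer annotation used for names, so its type is not given here. The interval of Wnt2-201 alone, 40.2 to 47.9 TPM and 38.5 to 46.1 TPM, overlapped that of the whole Wnt7b gene in both libraries. Wnt7b-201 held 97.43% and 96.99% of Wnt7b.

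Wnt11 was the detected ligand with the largest share in transcripts annotated for nonsense-mediated decay, 47.9% and 50.3%. Its coding transcript Wnt11-205 held 46.42% and 44.44%, and the decay transcript Wnt11-202 held 33.27% and 45.65%, so the leading transcript differed between the libraries. Rnf43 was led in both by the retained-intron transcript Rnf43-206, at 46.17% and 47.78%. Notum was led by the retained-intron transcript Notum-201 in replicate 1 (36.27%) and by the coding transcript Notum-202 in replicate 2 (34.65%). Porcn had 69.3% and 67.4% in coding transcripts.

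Among the TCF/LEF genes, Tcf7l2 had 22 transcripts and the lowest coding share, 58.6% and 51.0%, with 40.8% and 44.8% in retained-intron transcripts. The coding Tcf7l2-209 held 36.22% and 30.89% and the retained-intron Tcf7l2-206 held 26.55% and 29.54%. The length of Tcf7l2-206 differs between the authors' annotation and the newer one, so its type may not apply to the sequence that was counted. Tcf7l1-201 held 89.89% and 91.07% of Tcf7l1. Tcf7-201 held 79.12% and 76.21% of Tcf7 and Tcf7-202 held 20.88% and 23.79%, and each codes for 303 residues. A search for a fixed pattern of a β-catenin binding motif found it in neither of these products. It was found in the products of Lef1-201, Tcf7l1-201 and Tcf7l2-209. After its leucine or methionine the pattern allowed only isoleucine or glycine, so it misses a site with another residue there. The search therefore cannot tell whether the Tcf7 products lack a site. Tcf7 had no other transcript in the deposited tables, so a longer form could not be measured. The search is a match of letters in the annotated products, and binding was not tested.

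Lef1 was divided among 3 coding transcripts. Lef1-201, with 397 residues, held 55.08% and 41.75%, Lef1-202, with 369 residues, 27.35% and 27.66%, and Lef1-204, with 384 residues, 9.80% and 25.06%. The Lef1-201 level had intervals of 7.14 to 12.2 TPM and 3.65 to 7.30 TPM, which overlap, as do those of Lef1-204. Lef1-202 and Lef1-204 lack an exon of 84 bases that Lef1-201 has, and Lef1-204 also lacks one of 41 bases. The 84-base exon is shown because it is the sequence on which the assignment of reads between Lef1-201 and Lef1-202 turns. It lies at chr3:131191023-131191106 on the plus strand of GRCm38, with no part in capitals.
Lef1 exon: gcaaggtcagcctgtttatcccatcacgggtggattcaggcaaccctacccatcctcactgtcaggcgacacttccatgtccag

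**Figure D3:**
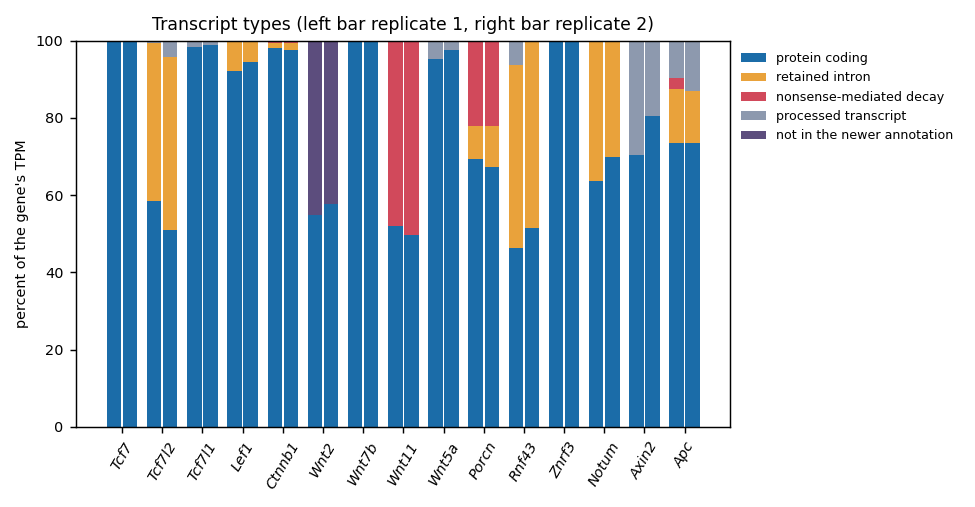
Percent of each gene's TPM by transcript type for 15 detected WNT pathway genes, with replicate 1 as the left and replicate 2 as the right bar of each pair. Tcf7l2 and Rnf43 hold much of their level in retained-intron transcripts, Wnt11 in nonsense-mediated decay transcripts and Wnt2 in a transcript that is not in the newer annotation.

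Between the pools no WNT pathway gene with a mean of at least 5 TPM differed 2-fold. A gene was called apart when its mean was at least 5 TPM, its level differed 2-fold or more after TMM scaling and its deposited intervals did not overlap. None of the 33 WNT pathway genes at that level was called apart, beside 0.355% of all genes tested (40 of 11261). That is near the share of all genes, so it marks out no trait of these genes. No p-value was computed for this count, since each pool has 1 library. The largest difference among the 33, that of Lef1, was -0.37 on the log2 scale, well inside the 2-fold limit.

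With no minimum on the fold, a rule chosen after the data were seen, the intervals were separate for 8 of the 33 (24.2%), beside 13.5% of all genes tested. Of these 8, 5 were lower in replicate 2, while over all genes tested 486 of the 1523 with separate intervals were. Out of the genes tested, that is 5 of 33 beside 486 of 11261 (4.32%). On the log2 scale the scaled difference of replicate 2 over replicate 1 was -0.37 for Lef1, -0.31 for Sfrp1, -0.29 for Tcf7, -0.18 for Fzd6 and -0.12 for Dkk3. The 3 higher genes were Fzd1 (0.19), Fzd2 (0.15) and Ctnnb1 (0.07). The TMM scaling adds 0.07 to each log2 ratio. Without it the count was again 8 and the genes changed in part, with Wls and Wnt2 in place of Ctnnb1 and Fzd2. The deposited intervals describe read assignment and counting within 1 library and no spread between pools.

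Tcf7 and Lef1, both known also as regulators of T cell development in the thymus, were the effectors with the largest differences. Over all protein-coding genes the SD of the log2 ratio was 0.23 between 5 and 20 TPM, where Lef1 lies, and 0.13 between 20 and 100 TPM, where Tcf7 lies. Markers of thymus and T cells moved the same way: all 7 with a mean of at least 1 TPM were lower in replicate 2, with a median log2 ratio of -2.26. In that list 5 of 9 markers were detected and none was at 0 in both libraries, and the early T cell gene Ptcra stood at 6.89 and 1.06 TPM. The part of this in the levels of Tcf7 and Lef1 was not tested. Tcf7l1 and Tcf7l2 differed by -0.04 and 0.13.

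Sfrp1, Fzd6 and Dkk3 were lower in replicate 2 together with the markers of the mesothelium, of which all 4 were lower, with a median log2 ratio of -0.36, and those of squamous epithelium, of which all 4 were lower, with a median of -1.01. The thymus and T cell markers and those of nerve were lower there too. Fzd1 and Fzd2 were higher in replicate 2 together with the markers of smooth muscle, of which all 4 were higher, with summed levels of 1016 and 1159 TPM and a median log2 ratio of 0.24. Markers of hepatocytes (6 of 6 higher, median 2.29) and of skeletal muscle (3 of 3 with a mean of at least 1 TPM, median 1.86) were higher there too. Lists with smaller medians were mixed. Endothelium (3 of 4, median -0.03), mesenchyme (4 of 6, -0.01) and heart muscle (4 of 7, -0.21) were mostly lower. Epithelium (5 of 7, 0.08) and macrophages (3 of 4, 0.01) were mostly higher. In these lists the direction hangs in part on the scaling, which adds 0.07. Before it, Nkx2-1 (74.1 and 71.04 TPM), Csf1r (15.09 and 14.44 TPM) and Cd68 (10.1 and 9.75 TPM) were lower in replicate 2. With 2 libraries, a gene lower in replicate 2 goes with every list lower there, so the shared direction ties no gene to a tissue. The part of these tissues in the levels was not tested. Below 5 TPM the spread was wider, with an SD of 0.62 between 1 and 5 TPM. Frzb at 0.63 and Wnt7a at -0.55 had the largest log2 differences of the detected members there, each with overlapping intervals.

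**Figure D4:**
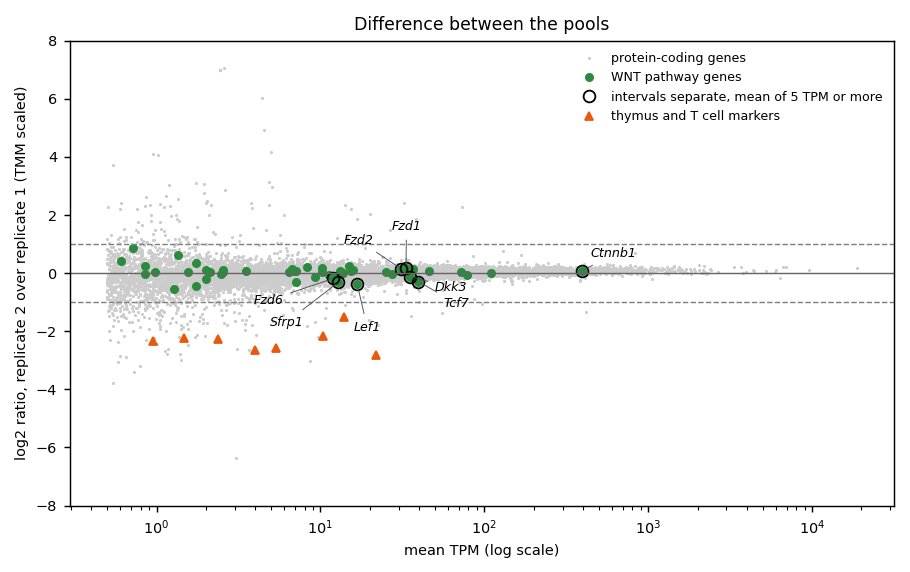
Log2 ratio of replicate 2 over replicate 1 after TMM scaling against mean TPM on a log axis, for protein-coding genes (grey), WNT pathway genes (green), those with separate intervals and a mean of 5 TPM or more (ringed) and thymus and T cell markers (orange). Dashed lines mark a 2-fold difference. All ringed genes lie between -0.37 and 0.19, while the T cell markers shown lie below -1.5.

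The rest of the pathway was read from 5 lists of 78 other genes, of which 72 were detected. In the list of the destruction complex and its partners all 14 were detected, led by the casein kinase genes Csnk1a1 (208 ± 5.81 TPM), Csnk1d (112 ± 0.785 TPM) and Csnk1e (80.4 ± 0.856 TPM). All 13 nuclear cofactors were detected, led by the corepressor genes Aes (462 ± 5.46 TPM), Ctbp1 (238 ± 0.679 TPM) and Ctbp2 (78.9 ± 1.80 TPM). The medians of these lists were 26.6 ± 1.29 and 32.8 ± 2.44 TPM.

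In the list of planar polarity and the β-catenin independent branch 18 of 20 genes were detected. The list's median was 8.96 ± 0.417 TPM, and it was led by the receptor-like genes Ptk7 (115 ± 5.18 TPM) and Ryk (20.6 ± 1.19 TPM) and by Prickle1 (19.3 ± 0.955 TPM). Celsr3 and Prickle4 were below the minimum, at 0.165 and 0.650 TPM. Of 19 surface and secreted modulators 15 were detected, led by the glypican gene Gpc3 (371 ± 2.71 TPM), the LRP chaperone gene Mesd (111 ± 1.85 TPM) and Tspan12 (45.4 ± 2.28 TPM), a partner of FZD4. Kremen2 (0.95 and 0.32 TPM), Sost, Draxin and Dkkl1 were below the minimum.

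All 12 genes of the list of known WNT responsive genes were detected. Their median stood at 51.9 ± 0.318 TPM. Fgfr2 (148.92 and 132.89 TPM), Ccnd1 (111.73 and 104.56 TPM) and Myc (65.46 and 64.05 TPM) had the highest means, although Tnfrsf19 (61.19 and 65.31 TPM) stood above Myc in replicate 2, and Sp5 was the lowest at 7.86 and 7.82 TPM. These genes answer to other signals too, and without a group in which WNT signalling was changed their levels are a description only. None of the 78 genes was called apart between the pools.

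**Figure D5:**
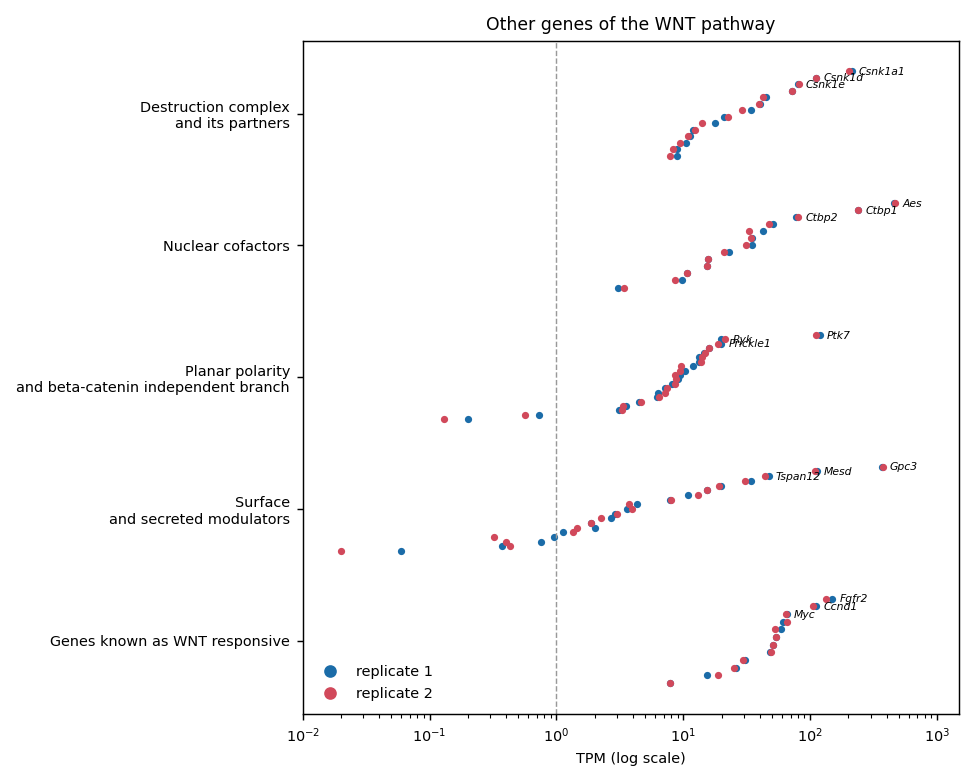
TPM on a log axis of 78 other genes of the WNT pathway in 5 lists, each gene as a point for replicate 1 (blue) and replicate 2 (red) and ordered by mean within its list, with the 3 highest named and the dashed line at the detection minimum of 1 TPM. The 6 genes left of the line in both libraries belong to the planar polarity and the modulator lists, and all genes of the other 3 lists lie to its right.

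TCF and LEF proteins bind the word CTTTGAT or CTTTGAA. RefSeq promoter windows from 250 bases before to 50 after a gene's start (GRCm38.p6) were found for 40 of the 62 genes, in 50 windows. CTTTGAT on either strand was in 4.00% of these, those of Wnt11 and Wnt5b, beside 3.73% of all 32851 windows. CTTTGAA was in 2.00%, that of Dkk1, beside 5.14% of all windows. A word of this length is a match of letters and not a measured binding site.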

How the data were processed

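Total RNA sequencing of 2 pooled lung libraries was read from the gene and transcript tables that the authors deposited. The expected counts, TPM, FPKM and the percent of a gene's TPM held by each transcript are deposited values, per the file headers. The deposited interval of the TPM, listed as a signal, is centred near the posterior mean, so a TPM can lie outside it, and its level is not given in the sources used here. FPKM was not used. The text deposited with the tables names mm10 and GENCODE M4. The quantification program and whether strand was used were not given in the sources used here. Without strand, reads of overlapping genes cannot be told apart.

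Gene names, types, positions and transcript sequences came from GENCODE M21, also on GRCm38, matched by identifier (97.96% of 43346). Promoter windows came from RefSeq. The libraries held 39530297 and 35733530 expected counts in genes (97.86% and 97.63% of the total). Spike-ins held 2.14% and 2.37%, and 26248 numbered features that name no gene held 71 and 66 reads and were left out. The counts, rounded to whole numbers, gave the TMM factors (edgeR 4.0.16, R 4.3.3), of 1.01 and 0.989, which shift the log2 ratio by 0.07, as did DESeq2 1.42.0 size factors. The TMM scaling of counts was checked on simulated counts with known changes and counting error only. That check covered neither the TPM ratio used here nor a spread between pools.

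The single group of 2 allows no test between conditions, so no p-value is given. Replicates were numbered by the labels as separate biological replicates. A pair of genes was called different where the order was the same and the intervals separate in each library. Values are given for the 3 highest genes of each role, neighbouring ligands and the TCF/LEF genes, and for the others by value or range. The genes were taken by a naming rule that uses no measured value, but the rule, the lists and the ratios were set with earlier results of these data known. Alternatives covered the detection minimum, the TPM column, the length, the scaling, the fold and each library alone.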

Additional observations from a re-analysis of the deposited data

How the results depend on the processing

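Of the 62 genes, between 38 and 58 were detected under other minimums, with the posterior mean TPM, with coding transcripts only or without 1 replicate, beside 45 in the main result, and the other pathway genes ranged from 69 to 75 beside 72. No WNT pathway gene was called apart under a mean minimum of 1 TPM, no minimum, a 1.5-fold limit, DESeq2 size factors, no scaling or the exact binomial test, which covers counting error only, where 1.04, 1.28, 0.719, 0.355, 0.373 and 0.568% of all genes were. Since no WNT pathway gene at 5 TPM or more differed by over 0.37 on the log2 scale, the fold limit alone sets their counts to 0. With separate intervals at any fold the count was 8, with and without scaling. That rule and the sum over coding transcripts were chosen after seeing the data. The median TPM of a role moved by more than the spread between libraries as follows. With the posterior mean it was 1.06 for ligands, 9.68 for receptors and 24.4 for effectors. With the annotated length it was 1.09 for ligands, 67.6 for ligand maturation, 11.2 for receptors, 2.44 for antagonists, 7.38 for receptor turnover and 28.8 for effectors. Over detected genes only it was 6.68 for ligands, 11.6 for receptors, 12.6 for antagonists and 7.0 for receptor turnover. With coding transcripts it was 0.700 for ligands and 20.2 for effectors. The Wnt5a share of the ligand sum was 9.60% with the posterior mean. With coding transcripts the shares were 34.4% for Wnt2, 35.8% for Wnt7b, 6.31% for Wnt11 and 11.7% for Wnt5a. In that setting 2 of the 14 ratios called different turned, Wnt2 over Wnt7b to 0.961 and Tcf7l1 over Tcf7l2 to 1.34, because it leaves out the unnamed Wnt2 transcript and the retained-intron Tcf7l2 transcripts by construction. The other 68 of 70 alternatives of those ratios kept their direction, though Wnt7b over Wnt11 was 5.67 and Wnt2 over Wnt2b 25.5 with coding transcripts. Of the ratios not called different, that setting gave 1.85 for Wnt5a over Wnt11, 1.95 for Tcf7 over Tcf7l2, 2.08 for Znrf3 over Rnf43 and 0.606 for Rnf43 over Lgr6. No paired analysis was possible because the study has a single group. Genes below 1 TPM rest on between 0 and 73 reads a library, and of their neighbouring pairs within a role only Dkk1 over Dkk4 had separate intervals in both libraries.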
